A study of Homo sapiens with 11 samples.

Results

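Translation initiation and elongation factors were taken as the protein-coding genes of the count table whose symbol begins with EIF and a digit from 1 to 6, or with EEF followed by 1 or 2, and which held at least 100 counts summed over the 11 libraries. Of 71 genes with such a symbol, 66 met the count limit, among 19892 protein-coding genes and 60676 genes in all. Of these, 54 were eukaryotic initiation factor (EIF) genes and 12 were elongation factor (EEF) genes, and the symbols take in regulators such as kinases, binding proteins and methyltransferases as well as the factors themselves. All 66 passed the filter on low counts and were among the 19981 genes tested. Just inside the limit was EIF4EBP3, with 120 counts in all. Of the 5 genes outside it, EEF1G, EIF4E1B, EEF1AKMT4-ECE2 and EEF1E1-BLOC1S5 were listed at 0 counts in every library, and the level of EIF1AY, a Y-linked gene, is not given. Other genes on the same strand overlap 99.7% of the exonic bases of EEF1G and 100% of those of EEF1AKMT4-ECE2 and EEF1E1-BLOC1S5. The 0 counts of these genes cannot be read as absence of their mRNA.

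The cells were RWPE1, an immortalized, non-tumorigenic line of human prostate epithelium grown in keratinocyte serum-free medium. Total RNA of more than 200 nucleotides was sequenced as stranded single-end reads from 3 untreated normoxic libraries, 3 libraries each after 6 h and 12 h at 1% oxygen, and 2 after 24 h at 1% oxygen, all prepared in a single batch. The third library at 24 h is not analysed here. The medium for hypoxia held 10 mM HEPES, so that the change of oxygen and the change of buffer cannot be told apart, and nothing states that the replicates were separate cultures, so that p-values measure the spread between these libraries, which may be technical. A library is 1 measurement of a mixed culture, in which fewer cells of a kind and less RNA per cell cannot be told apart.

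Counted reads ran from 27496009 to 49488345 per library. Levels are given as CPM, a gene's counts relative to the total of its library, after TMM scaling, which corrects that total for composition. The scaling factors ran from 0.539 in the second 24 h library to 1.32. Under library size without TMM the median fold change of all genes tested moved to -0.32 on the log2 scale at 6 h, -0.50 at 12 h and -0.97 at 24 h, against -0.002, -0.03 and -0.07 with TMM, so that directions given below are relative to the median gene and the text says where a called direction turned under library size alone. A call given below without such a remark may still be lost with that scaling. All 7 epithelial markers were detected in every library, with KRT5, a basal keratin, at 6077 to 15881 CPM. Of 6 fibroblast markers only COL1A1 was above 0.14 CPM (27.7 to 60.5 CPM), and their sum lay at 47.2 to 60.6 CPM in normoxia and 28.0 to 30.5 CPM at 24 h. The 4 immune markers summed to 0.555 to 0.853 CPM in normoxia and 1.96 to 3.38 CPM at 24 h, where all of it was CD14, which rose at each time, and PTPRC, CD3E and LYZ were at 0 counts. Endothelial markers summed to at most 0.257 CPM. The part of these levels in the results below was not tested.

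Protein synthesis begins when the initiator tRNA, carried by eIF2 with GTP, joins the small ribosomal subunit together with eIF1, eIF1A, eIF3 and eIF5. The eIF4 factors bind the 5′ cap of the mRNA and bring it to this complex, and the subunits then join with the help of eIF5B. In elongation, eEF1A delivers aminoacyl-tRNA, eEF2 moves the ribosome by a codon, and eIF5A eases the joining of difficult residues. Low oxygen is known to curb translation through phosphorylation of eIF2 by the kinase PERK and through sequestration of the cap-binding protein eIF4E by 4E-binding proteins when mTORC1 is inactive. Both act on the proteins, whereas the values here are levels of mRNA.

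With TMM scaling, translation factor mRNAs were more often higher than lower in hypoxia, whereas under library size alone the calls were nearer to equal and the median log2 fold change of the 66 genes at 24 h was -0.02. Adjusted p-values are from the quasi-likelihood test of edgeR, adjusted by Benjamini and Hochberg's method across every gene tested, and a gene is called higher or lower where its value is below 0.05. By this rule 27 of the 66 genes were higher at 6 h and 4 were lower, or 40.9% and 6.06%, where 25.1% and 27.7% of all genes tested were higher and lower. At 12 h 34 were higher and 4 lower, or 51.5% and 6.06%, against 24.2% and 27.1% of all genes. At 24 h 45 were higher and 5 lower, or 68.2% and 7.58%, against 29.9% and 31.3% of all genes. Between 6 h and 24 h, 36 rose and 8 fell, or 54.5% and 12.1%, against 22.1% and 20.3% of all genes. The median log2 fold change of the 66 was 0.33 at 6 h, 0.54 at 12 h and 0.91 at 24 h. The comparisons with normoxia share the same normoxic libraries.

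Under library size alone the counts were 12 higher and 10 lower at 6 h, 15 and 8 at 12 h, 19 and 16 at 24 h, and 11 and 13 between 6 h and 24 h, with medians of 0.01, 0.07, -0.02 and -0.05. With that scaling 2713 genes were higher and 7130 lower at 6 h over all genes tested, 2116 and 8444 at 12 h, 2222 and 11305 at 24 h, and 1269 and 7373 between 6 h and 24 h.

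Over time, 20 genes were higher at all 3 times with TMM scaling, among them the cap-binding protein EIF4E, the helicase EIF4A3, the subunit-joining factor EIF5B and 7 subunits of eIF3. The genes lower at all 3 times were EEF2K, EIF2AK4 and EIF4E3. A further 21 were higher at 24 h but did not pass the test at 6 h, and 3 (EIF2AK3, EIF4G1 and EIF4H) were higher at 6 h and did not pass at 24 h. At no time did 11 genes pass the test, among them EIF3A, EIF2S3, EIF2B1, EIF2B5, EIF2AK1 and EIF2AK2. No gene was higher at one time and lower at another.

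**Figure D1:**
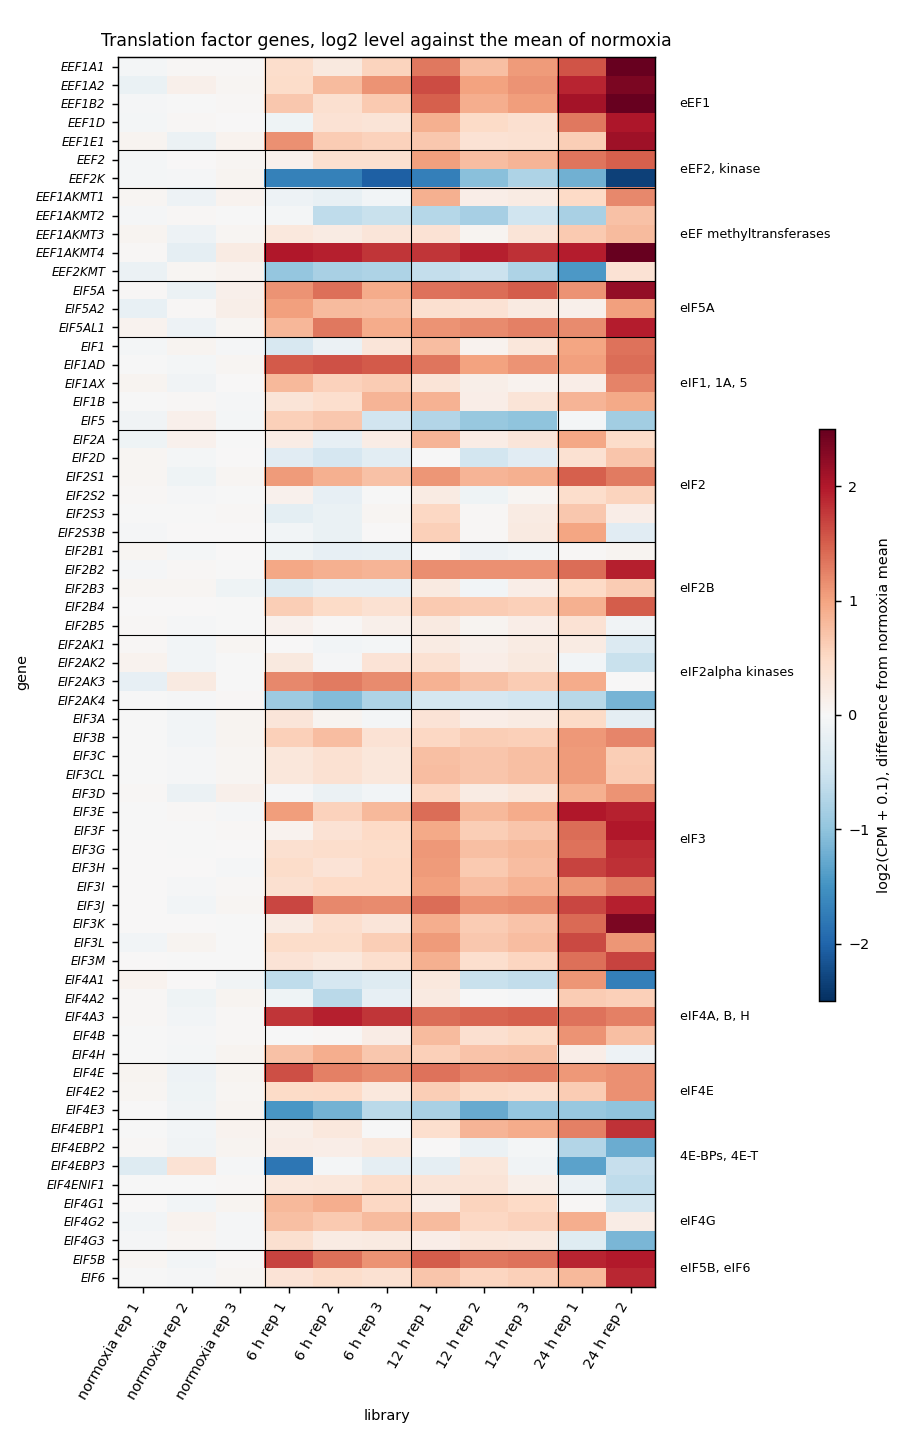
Each line is 1 of the 66 translation factor genes, grouped by factor, and each column 1 of the 11 libraries; the colour is log2(CPM + 0.1) minus the mean of the 3 normoxic libraries, with values past the ends of the scale in the end colour. Between 6 h and 24 h 12 of 14 eIF3 genes and 4 of 5 eEF1 genes rose (EIF3B was at -0.03 under library size alone), and EIF3A stays pale, while EEF2K, EIF2AK4 and EIF4E3 are blue in all 8 hypoxic libraries.

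Reads of the 66 genes made up 3.11% ± 0.0676 of all counted reads in normoxia, 3.28% ± 0.23 at 6 h, 4.13% ± 0.428 at 12 h and 5.51% ± 0.491 at 24 h (mean ± SD of 3, 3, 3 and 2 libraries). The single values were 3.04, 3.18 and 3.12% in normoxia, 3.25, 3.07 and 3.52% at 6 h, 4.59, 3.75 and 4.04% at 12 h, and 5.16 and 5.86% at 24 h. All libraries at 12 h and 24 h lay above all normoxic ones, and those at 6 h overlapped them. Exact two-sided permutation tests against normoxia gave p = 0.3 at 6 h, 0.1 at 12 h, the smallest that 3 against 3 libraries allow, and 0.2 at 24 h, the smallest that 2 against 3 allow (0.386, 0.3 and 0.3 adjusted over 9 share tests), so that no share could pass 0.05. EEF1A1 alone held 1.47% ± 0.0538 in normoxia and 2.85 and 4.24% at 24 h. The other 65 genes held 1.64% ± 0.0171 in normoxia, 1.92% ± 0.105 at 12 h, and 2.32 and 1.62% at 24 h, where the libraries lay on either side of the normoxic range of 1.63 to 1.66% (exact permutation p = 0.8, n = 2 and 3).

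**Figure D2:**
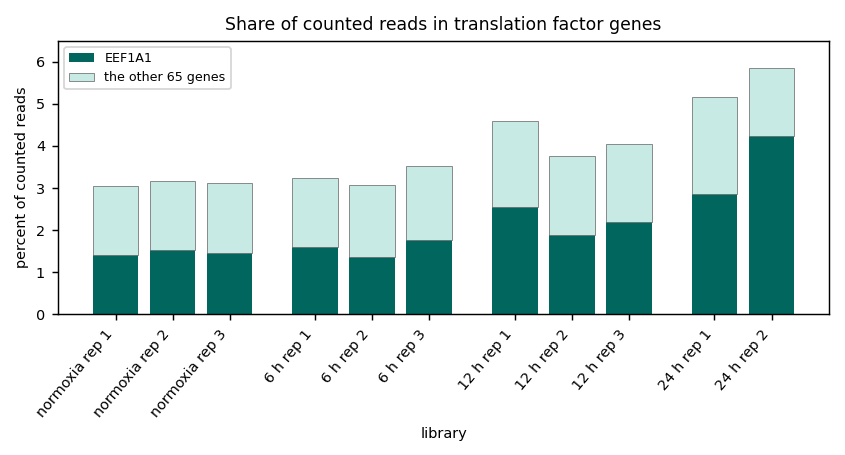
Bars give the percent of counted reads per library that fell in the 66 translation factor genes, divided into EEF1A1 and the other 65 genes. The total runs from 3.04% to 3.52% in normoxia and at 6 h and from 3.75% to 5.86% at 12 h and 24 h, and in the second 24 h library EEF1A1 takes 4.24%.

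Many translation factor mRNAs begin with a terminal oligopyrimidine (TOP) motif, a C at the cap followed by an unbroken run of pyrimidines, which places their translation under mTORC1 and the binding protein LARP1. RefSeq promoter windows (GRCh38.p14) were found for 52 of the 66 genes. A TOP-like start, set here as C followed by at least 4 bases of C or T on the gene's strand, with no search of the other strand, was present at an annotated start of 13 of them, or 25.0%, against 7.12% of 12101 tested genes with a window and 5.14% of all 27305 symbols with one. A gene was counted where any of its windows held such a start, and EEF1B2 and EIF2S3B each had 1 window with it and 1 without. The 13 were EEF1A1, EEF1B2, EEF2, EIF2A, EIF2D, EIF2S3, EIF2S3B, EIF3D, EIF3F, EIF3K, EIF3M, EIF4A2 and EIF4B. Of these, EIF2S3B is a copy of EIF2S3 with the same run, so that the 13 are not all independent. The annotated starts are those of reference transcripts and were not measured in these cells.

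The starts of 6 genes with such a run and 4 without are shown as examples of the letters that define these groups. They were picked after their values were seen, and the 4 without a run are all among the genes higher at all 3 times. Each is 30 bases, 5′ to 3′ on the gene's strand, with 15 bases before the annotated start, and capitals mark the pyrimidine run from the start, or the start base alone where there is no run. They lie at chr6:73521018-73521047 (minus strand) for EEF1A1, chr2:206159880-206159909 (plus) for EEF1B2, chr19:3985449-3985478 (minus) for EEF2, chr19:38619173-38619202 (plus) for EIF3K, chr3:186783562-186783591 (plus) for EIF4A2 and chr12:53006441-53006470 (plus) for EIF4B. Those without a run lie at chr4:98929119-98929148 (minus) for EIF4E, chr17:80147114-80147143 (minus) for EIF4A3, chr2:99337374-99337403 (plus) for EIF5B and chr14:67360313-67360342 (plus) for EIF2S1.
EEF1A1: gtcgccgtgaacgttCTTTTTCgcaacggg
EEF1B2: ccggtctcttcgggtCCTTTTTCCTCTCTT
EEF2: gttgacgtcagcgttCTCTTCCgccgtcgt
EIF3K: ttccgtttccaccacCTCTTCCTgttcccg
EIF4A2: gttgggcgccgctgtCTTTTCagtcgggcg
EIF4B: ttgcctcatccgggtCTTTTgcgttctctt
EIF4E: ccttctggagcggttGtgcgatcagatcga
EIF4A3: gttctcggcagcggcAcagcgaggtcggca
EIF5B: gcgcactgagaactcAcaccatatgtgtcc
EIF2S1: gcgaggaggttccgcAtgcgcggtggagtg

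Of the 13 genes with a TOP-like start, none passed the test at 6 h, 7 were higher at 12 h and 11 at 24 h, none was lower at any time, and 12 (all but EIF2S3B) rose between 6 h and 24 h. Their median log2 fold change was 0.07 at 6 h, 0.57 at 12 h and 1.00 at 24 h. Of the 39 genes with a window but no such start, 22 were higher and 3 lower at 6 h, 19 and 4 at 12 h, 23 and 5 at 24 h, and 13 rose and 8 fell between 6 h and 24 h, with medians of 0.49, 0.49, 0.81 and 0.21. Over all 861 tested genes with a TOP-like start, 21.1% were higher at 6 h, 31.4% at 12 h and 38.9% at 24 h, and 41.2% rose between 6 h and 24 h, against 27%, 24.6%, 28.4% and 21.3% of 11242 without. Under library size alone, of the 13 genes 0 were higher and 3 lower at 6 h, 2 and 1 at 12 h, 6 and 0 at 24 h, and 6 rose and 0 fell between 6 h and 24 h. Of the 39 others 12 were higher and 6 lower at 6 h, 10 and 6 at 12 h, and 7 and 14 at 24 h. Between 6 h and 24 h 0 of these 39 rose and 13 fell with that scaling. The counts of both sets at 6 h (TMM scaling) depended on the 24 h libraries, whose spread enters the fit of all groups. Without the first 24 h library 5 of the 13 were higher and 1 lower at 6 h, and without the second likewise 5 and 1, while 10 and 13 rose between 6 h and 24 h.

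**Figure D3:**
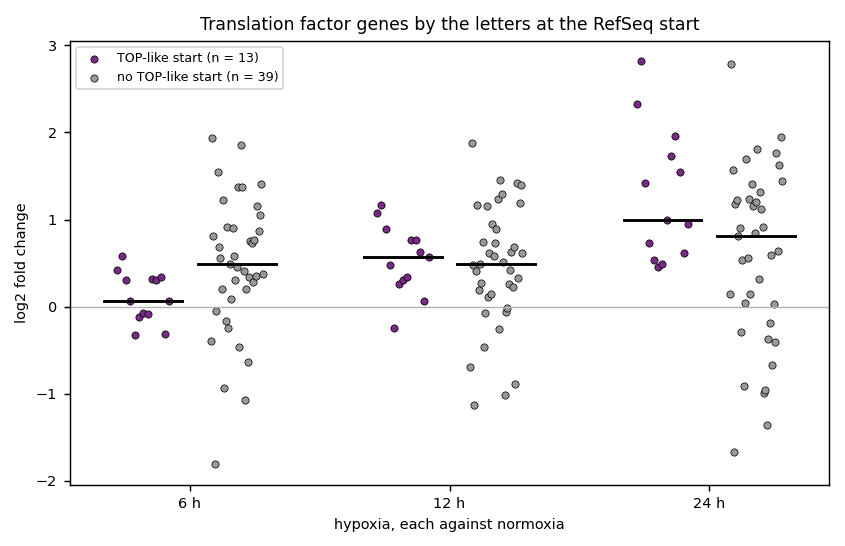
Points are the log2 fold changes (TMM scaling) of 52 translation factor genes against normoxia at 6 h, 12 h and 24 h, by whether the RefSeq start is TOP-like (13 genes) or not (39 genes), and bars are medians. The TOP-like genes move from a median of 0.07 at 6 h to 1.00 at 24 h, the others from 0.49 to 0.81.

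A further 3 motifs were counted in the same windows on both strands, from 250 bases before to 50 after the start. The E-box CACGTG, the letters that MYC and related factors read, lay in windows of 14 genes (26.9%, against 12.2% of tested genes with a window). ACGTG, the core of the hypoxia response element, lay in those of 26 genes (50% against 31.7%) and takes in every CACGTG, and GCGTG, its other form, lay in those of 34 (65.4% against 57.0%). These counts describe letters in the windows only.

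The eEF1 complex, which brings aminoacyl-tRNA to the ribosome, had the highest median of the factor groups at 24 h. Its group holds 5 measured genes, among them EEF1E1, which belongs to another complex. Of these, 2 were higher at 6 h (EEF1A2 and EEF1E1), 4 at 12 h and 5 at 24 h, with median log2 fold changes of 0.58, 1.07 and 2.15. EEF1A1, the GTPase that carries the tRNA, stood at 10779, 11523 and 11379 CPM in normoxia, 15216, 13299 and 16602 at 6 h, 28072, 19024 and 23453 at 12 h, and 33519 and 78725 at 24 h. Every hypoxic library lay above every normoxic one, and the second 24 h library lay far above the first. Its log2 fold change was 0.42 ± 0.31 (SE) at 6 h (edgeR adjusted p = 0.27), 1.07 ± 0.31 at 12 h (0.0132) and 2.32 ± 0.35 at 24 h (0.000107), and the call at 12 h was lost without the first normoxic library. In normoxia EEF1A1 was the most abundant of the 66 genes per length, at 1116 CPM per kb of annotated exon, followed by EEF2 at 1025 and EEF1B2 at 166.

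EEF1B2, a nucleotide exchange factor for eEF1A, measured 313, 317 and 322 CPM in normoxia, 507, 419 and 498 at 6 h, 889, 599 and 654 at 12 h, and 1338 and 3133 at 24 h. No hypoxic library overlapped normoxia, and the levels at the 3 times did not overlap either. The log2 fold change was 0.58 ± 0.26 at 6 h (edgeR adjusted p = 0.0802), 1.17 ± 0.27 at 12 h (0.00302) and 2.82 ± 0.30 at 24 h (8.4e-06), the highest of the 66 genes at 24 h. The level of EEF1B2 is uncertain, since 22.6% of its 75-base windows occur unchanged in other genes. Genes on the same strand overlap 16.4% of its exonic bases. EEF1D, the other exchange subunit, rose by a log2 fold change of 1.72 ± 0.22 at 24 h (edgeR adjusted p = 3.76e-05), from 148, 155 and 154 CPM to 379.7 and 623. EEF1A2, the isoform of muscle and neurons, stood at only 11.1 to 13.6 CPM in normoxia and at 47.2 and 63.9 CPM at 24 h, a log2 fold change of 2.15 ± 0.23 (edgeR adjusted p = 9.83e-06), and was already higher at 6 h (0.82 ± 0.21, edgeR adjusted p = 0.00568). The log2 ratio of EEF1A2 to EEF1A1 within a library was -9.81 ± 0.10 in normoxia and -9.87 ± 0.56 at 24 h (SD, n = 3 and 2, exact permutation p = 0.8). EEF1E1, a scaffold of the multi-synthetase complex, was higher at 6 h (log2 fold change 0.81, edgeR adjusted p = 0.0396), a call lost under library size alone, under limma-voom, with the replicate block and without single libraries of normoxia, 6 h or 12 h. At 24 h its libraries stood at 7.66 and 21.9 CPM against 4.45 to 5.27 in normoxia, and its log2 fold change of 1.57 was 0.60 without the second of them and did not pass under library size alone.

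Reads of EEF1A1 are hard to place. It held 7829812 counts, while 49 genes annotated as its pseudogenes held 11315153, led by EEF1A1P5 with 3910231, and 11.4% of its 75-base windows occur unchanged in another gene. Its level and share are therefore uncertain.

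EEF2, the translocase, and EEF2K, the kinase that phosphorylates and inactivates it, moved in opposite directions. EEF2 was measured at 3965, 4136 and 4260 CPM in normoxia, 4429, 5437 and 5446 at 6 h, 8425, 7018 and 7452 at 12 h, and 10451 and 11568 at 24 h. The groups did not overlap. The log2 fold change was 0.31 ± 0.19 at 6 h (edgeR adjusted p = 0.197), 0.89 ± 0.20 at 12 h (0.0025) and 1.42 ± 0.21 at 24 h (0.000116). Under library size alone the call at 12 h was lost. EEF2K fell from 78.8, 79.2 and 85.3 CPM in normoxia to 24.9, 24.9 and 19.6 at 6 h, 24.6, 39.0 and 47.5 at 12 h, and 35 and 15.9 at 24 h. All hypoxic libraries lay below all normoxic ones, at 0.285, 0.457 and 0.314 times the normoxic level, and the 3 hypoxic times overlapped one another. It was lower by edgeR's test at each time (log2 fold changes of -1.81 ± 0.28, -1.13 ± 0.27 and -1.67 ± 0.32, adjusted p = 0.000168, 0.00414 and 0.000677), and did not differ detectably between 6 h and 24 h (0.14 ± 0.30, adjusted p = 0.734).

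Among 5 methyltransferases of elongation factors, EEF1AKMT4 rose most, from 2.63, 2.19 and 3.01 CPM in normoxia to 10.6, 10.2 and 9.17 at 6 h, 9.23, 10.3 and 9.41 at 12 h, and 10.4 and 25.6 at 24 h. All hypoxic libraries lay above normoxia, and 1 of the 24 h libraries lay apart from the rest. It was higher at each time by edgeR's test (log2 fold changes of 1.94 ± 0.27, 1.88 ± 0.27 and 2.78 ± 0.30, adjusted p = 9.68e-05, 0.000156 and 9.44e-06), and the further rise between 6 h and 24 h (0.84 ± 0.29, adjusted p = 0.0314) was lost without the second 24 h library. Other genes overlap 49.2% of its exonic bases. EEF2KMT, which modifies eEF2, fell at 6 h, from 3.6, 4.1 and 4.26 CPM to 1.98, 2.24 and 2.29 (log2 fold change -0.87 ± 0.33, edgeR adjusted p = 0.0411), and did not pass later. EEF1AKMT1 and EEF1AKMT3 were higher at 24 h only, at log2 fold changes of 0.91 and 0.73, and stood at -0.08 and -0.20 under library size alone. EEF1AKMT2 passed at no time (-0.40, -0.69 and 0.15).

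The eIF5A genes encode the only known hypusine-containing proteins, and all 3 were higher at 6 h. EIF5A stood at 178, 157 and 189 CPM in normoxia, 378, 450.4 and 332 at 6 h, 446, 456 and 497 at 12 h, and 382 and 798 at 24 h. All hypoxic libraries lay above normoxia while the times overlapped. Against normoxia the log2 fold changes were 1.15 ± 0.23, 1.42 ± 0.23 and 1.76 ± 0.25 (edgeR adjusted p = 0.00121, 0.000352 and 7.85e-05). EIF5A2, a paralog amplified in some carcinomas, went from 7.51, 8.80 and 9.57 CPM to 17.5, 14.9 and 14.8 at 6 h and returned to 11.4, 11.1 and 9.98 at 12 h, with 9.37 and 17.6 at 24 h. It was higher at 6 h (log2 fold change 0.87 ± 0.21, edgeR adjusted p = 0.0037) and 24 h (0.64 ± 0.23, adjusted p = 0.0288), where 1 library lay within the normoxic range, the call was lost without the second 24 h library, and the value was -0.37 under library size alone. EIF5AL1, another, intronless copy, had log2 fold changes of 1.05, 1.19 and 1.62, but 10.7% of its 75-base windows also occur in other genes, as do 8.75% of those of EIF5A. The log2 ratio of EIF5A2 to EIF5A was -4.34 ± 0.20 in normoxia and -5.43 ± 0.18 at 12 h (SD, n = 3 each, exact permutation p = 0.1, the smallest possible).

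Genes grouped here with the factors that scan for the start codon differed in timing, and not every one of them is known as such a factor. EIF1AD, an eIF1A-like domain protein, stood at 18.6, 18.2 and 19.5 CPM in normoxia, 54.2, 56.6 and 54.6 at 6 h, 47.5, 38.0 and 41.2 at 12 h, and 38.1 and 49.4 at 24 h. It was highest at 6 h, with no overlap with any other group. It had log2 fold changes of 1.55 ± 0.14, 1.17 ± 0.14 and 1.22 ± 0.15 (edgeR adjusted p = 3.95e-06, 3.67e-05 and 2.65e-05). Under library size alone 1 of the 5 genes of this group was higher at 6 h, 1 at 12 h and 0 at 24 h. The calls of EIF1AD and EIF1 at 24 h were thus lost with that scaling. EIF5, the GTPase activator of eIF2, measured 187, 218 and 194 CPM in normoxia, 301, 320.1 and 142 at 6 h, 120.1, 104 and 99.2 at 12 h, and 192 and 109 at 24 h. At 6 h the third library lay below normoxia and the others above it, and only at 12 h did all libraries lie below. The fall at 12 h (log2 fold change -0.89 ± 0.27, edgeR adjusted p = 0.0166) was lost without the third 12 h library or the second normoxic one. EIF1, which guards the fidelity of start codon choice, was higher at 24 h only (log2 fold change 1.18 ± 0.24, edgeR adjusted p = 0.00103), whereas EIF1AX and EIF1B were higher at 6 h and 24 h, the latter calls with -0.23 and -0.02 under library size alone. EIF1AX at 24 h rested on 1 library, at 77.9 and 164.7 CPM against 65.4 to 72.4 in normoxia, and its log2 fold change of 0.81 was 0.15 without the second 24 h library (edgeR adjusted p = 0.363). The calls of EIF1AX and EIF1B at 6 h were lost under library size alone and without some single libraries of normoxia or 6 h. Within a library the log2 ratio of EIF1B to its paralog EIF1 went from -5.26 ± 0.04 to -4.65 ± 0.10 at 6 h (SD, n = 3 each, exact permutation p = 0.1, the smallest possible) and was -5.53 ± 0.19 at 24 h.

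In the eIF2 group 1 of 6 genes was higher at 6 h, 1 at 12 h and 4 at 24 h. The 6 include EIF2S3B, a copy of EIF2S3, and 12.4% of the 75-base windows of EIF2S3B also occur in EIF2S3. Their values may therefore not be independent. EIF2S1, the α subunit on which the stress kinases act, stood at 87.0, 78.3 and 87.5 CPM in normoxia, 176, 155 and 139.6 at 6 h, 180.4, 152 and 157 at 12 h, and 238 and 208 at 24 h. All hypoxic libraries lay above normoxia, and those of 24 h lay above the rest. The log2 fold changes were 0.90 ± 0.14, 0.95 ± 0.14 and 1.41 ± 0.15 (edgeR adjusted p = 0.000185, 0.000158 and 9.98e-06), and the difference of 0.51 between 6 h and 24 h was -0.06 under library size alone. With that scaling 1 of the 6 genes was higher at 6 h, 0 at 12 h and 0 at 24 h. The calls of EIF2S1 at 12 h and 24 h were thus lost. The β subunit EIF2S2 was higher at 24 h only (0.50, or -0.43 under library size alone) and the γ subunit EIF2S3 did not pass at 24 h (0.45 ± 0.19, edgeR adjusted p = 0.0598, or -0.41 under library size alone). EIF2A, which can bind initiator tRNA on its own, was higher at 24 h only (0.73, or -0.13 under library size alone). EIF2D, which can deliver tRNA without eIF2, stood at 60.9, 57.4 and 59.5 CPM in normoxia and 48.6, 44.3 and 49.4 at 6 h, where it did not pass the test, and reached 77.1 and 95.5 at 24 h. That rise (log2 fold change 0.54 ± 0.16, edgeR adjusted p = 0.00981) was -0.41 under library size alone and did not pass without the second 24 h library (adjusted p = 0.0616).

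Of the 5 genes of eIF2B, the exchange factor that recharges eIF2 and is blocked by its phosphorylated form, EIF2B2 (β) and EIF2B4 (δ) were higher at every time. EIF2B2 stood at 12.0, 12.4 and 12.1 CPM in normoxia, 23.9, 22.7 and 21.9 at 6 h, 27.5, 27.1 and 27 at 12 h, and 32.2 and 46.8 at 24 h. The 4 groups did not overlap. The log2 fold changes were 0.91 ± 0.15, 1.16 ± 0.15 and 1.70 ± 0.16 (edgeR adjusted p = 0.000248, 5.71e-05 and 4.32e-06). Under library size alone only 1 of the 5 genes was higher at each time. EIF2B1 (α) and EIF2B5 (ε, the catalytic subunit) passed at no time, with log2 fold changes of -0.17, -0.07 and 0.04, and 0.09, 0.15 and 0.15, and at 24 h both were negative under library size alone (-0.88 and -0.72). The subunits of this complex thus had unequal changes of mRNA.

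The 4 kinases of eIF2α, each activated by another stress, had no common direction. EIF2AK3, which encodes PERK, the kinase of the unfolded protein response, measured 11.5, 15.5 and 13.3 CPM in normoxia, 30.8, 32.8 and 30.2 at 6 h, 24.6, 22.2 and 20.8 at 12 h, and 25.6 and 13.5 at 24 h. It was highest at 6 h, and at 24 h 1 library lay within the normoxic range. The log2 fold change was 1.22 ± 0.20 at 6 h (edgeR adjusted p = 0.000347), 0.74 ± 0.20 at 12 h (0.00907) and 0.54 ± 0.23 at 24 h (0.0528), the last being -0.28 under library size alone. With that scaling 0 of the 4 kinases were higher at 12 h, so that the call of EIF2AK3 there was lost. Without the second 24 h library the value at 24 h passed (adjusted p = 0.000492), and the fall between 6 h and 24 h of -0.67 ± 0.23 (0.0333) did not (0.214).

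EIF2AK4, which encodes GCN2, the sensor of amino acid shortage, was lower at all 3 times, at 40.3, 39.4 and 41.5 CPM in normoxia, 21.4, 18.9 and 23.6 at 6 h, 29.7, 30.2 and 28.4 at 12 h, and 25.1 and 18 at 24 h. No hypoxic library reached the normoxic range, and the 12 h libraries lay above those of 6 h. The log2 fold changes were -0.93 ± 0.15, -0.46 ± 0.14 and -0.91 ± 0.17 (edgeR adjusted p = 0.000214, 0.0186 and 0.000526). EIF2AK1, the heme-regulated kinase, ran from 96.8 to 142 CPM over all libraries and passed at no time (-0.04, 0.18 and -0.04). EIF2AK2, the kinase activated by double-stranded RNA, passed at no time against normoxia (0.20, 0.27 and -0.29), and its fall between 6 h and 24 h (-0.48 ± 0.17, edgeR adjusted p = 0.0408) was lost without the second 24 h library (0.224).

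**Figure D4:**
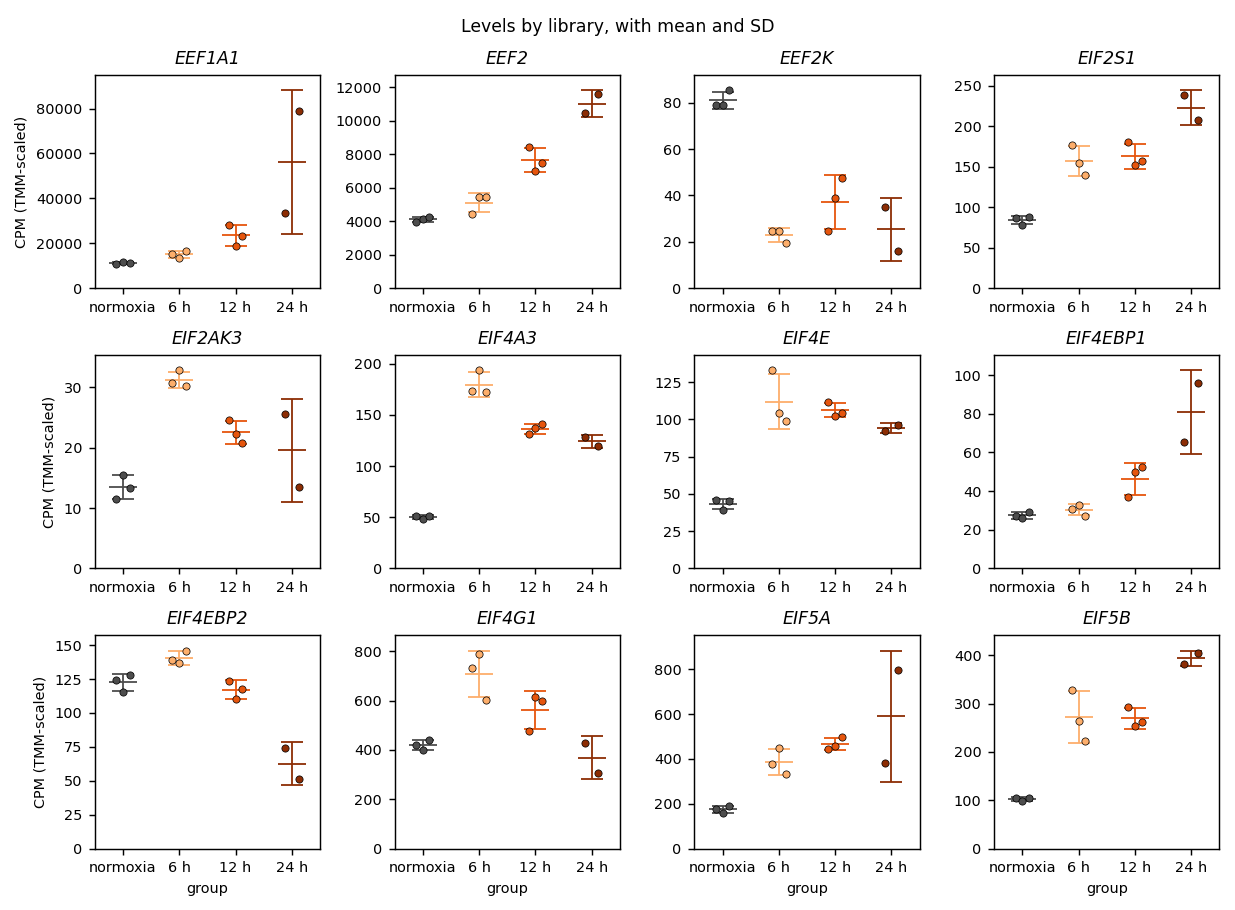
Points are TMM-scaled CPM in each library for 12 genes, by group, with the mean and SD (n = 3, 3, 3 and 2). EEF1A1 and EEF2 climb with time, EEF2K lies below normoxia throughout, EIF2AK3, EIF4A3 and EIF4G1 are highest at 6 h, and EIF4EBP1 and EIF4EBP2 part at 24 h.

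eIF3, the largest initiation factor, binds the small subunit and recruits the rest. Of its 14 measured genes, which include the near-identical copies EIF3C and EIF3CL, 7 were higher at 6 h, 12 at 12 h and 13 at 24 h, none was lower, and the medians were 0.39, 0.76 and 1.47. The count at 6 h was 12 without either 24 h library and 4 without the third normoxic one. Under library size alone 1 was higher and 1 lower at 6 h, 4 and 0 at 12 h, and 7 and 0 at 24 h, with medians of 0.07, 0.29 and 0.57. Of the subunits, EIF3J, a loosely bound one, rose most at 6 h, from 64.1, 60.6 and 65.4 CPM to 201, 146 and 145, and reached 166, 139 and 142 at 12 h and 202 and 244 at 24 h. All hypoxic libraries lay above normoxia. Against normoxia the log2 fold changes were 1.37 ± 0.16, 1.23 ± 0.16 and 1.81 ± 0.17 (edgeR adjusted p = 2.41e-05, 6.78e-05 and 4.7e-06).

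EIF3E, a subunit of the core octamer, was the eIF3 gene with the highest fold change at 24 h. It stood at 254, 262 and 252 CPM in normoxia, 525, 383 and 447 at 6 h, 678, 449.9 and 485 at 12 h, and 1031 and 976 at 24 h. The hypoxic libraries all lay above normoxia, and those of 6 h and 12 h overlapped. The log2 fold changes of the gene were 0.82 ± 0.18, 1.07 ± 0.18 and 1.97 ± 0.20 (edgeR adjusted p = 0.0023, 0.000456 and 6.67e-06). EIF3K, a small subunit with a TOP-like start, did not pass at 6 h (0.31, edgeR adjusted p = 0.203) and rose by a log2 fold change of 1.96 ± 0.22 at 24 h (1.29e-05), with 126, 126 and 124 CPM in normoxia and 335 and 642 at 24 h. The scaffold subunit EIF3A was the one eIF3 gene that passed at no time. It stood at 583, 561 and 616 CPM in normoxia, 722, 614 and 569 at 6 h, 741, 662 and 675 at 12 h, and 820.2 and 504 at 24 h, where the libraries lay on either side of normoxia. The log2 fold changes of EIF3A were 0.11, 0.24 and 0.17, with -0.66 at 24 h under library size alone.

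Of the other eIF3 subunits, the log2 fold changes at 24 h ran from 0.85 for EIF3C to 1.76 for EIF3H. EIF3C (207998 counts) and EIF3CL (204847 counts) are near-identical copies, with 95.9% of the 75-base windows of EIF3CL also present in other genes, and their values (0.85 and 0.86 at 24 h, the former -0.01 under library size alone) cannot be told apart. EIF3B, which anchors the subunits of EIF3I and EIF3G, had 0.58 at 6 h and 1.16 at 24 h. EIF3D, which can itself bind a cap, had -0.09 at 6 h without passing, and 1.00 at 24 h.

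The eIF4A helicases unwind the 5′ end of mRNA, and EIF4A3 and EIF4A2 differed in timing. EIF4A3, the member that sits in the exon junction complex, stood at 50.8, 47.8 and 51.3 CPM in normoxia, 173, 193 and 172 at 6 h, 132, 137 and 142 at 12 h, and 129 and 119.8 at 24 h. The 6 h libraries lay above all others and normoxia below all others. Its log2 fold changes of 1.85 ± 0.12, 1.45 ± 0.12 and 1.31 ± 0.13 passed at each time (edgeR adjusted p = 5.59e-07, 3.64e-06 and 5.52e-06), and the fall from 6 h to 24 h was -0.53 ± 0.13 (0.00682). Under library size alone 1 of the 5 helicases and cofactors was higher at 6 h, 1 at 12 h and 0 at 24 h. The call of EIF4A3 at 24 h was thus lost with that scaling. EIF4A2 stood at 307, 283 and 319 CPM in normoxia, 282, 189 and 263 at 6 h, 355, 303 and 296 at 12 h, and 469.5 and 455 at 24 h. The 6 h libraries lay at or below the lower edge of normoxia without passing the test (-0.31, edgeR adjusted p = 0.13), and both 24 h libraries lay above it, with a log2 fold change of 0.61 ± 0.18 (edgeR adjusted p = 0.0112) that was -0.30 under library size alone.

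EIF4A1, usually the most abundant of the 3, held only 1625 counts in all against 118155 for EIF4A2. Other genes on the same strand, among them SENP3-EIF4A1, overlap 47.4% of its exonic bases. Its levels of 4.97, 4.66 and 4.35 CPM in normoxia, 2.97, 3.44 and 3.71 at 6 h, 5.62, 3.14 and 2.99 at 12 h, and 10.1 and 1.36 at 24 h cannot be read as those of the gene. The 24 h libraries lay on opposite sides of all others, and no comparison passed. The helicase cofactor EIF4B, with a TOP-like start, was higher at 12 h and 24 h (log2 fold changes of 0.57 and 0.95) and had 0.07 at 6 h. EIF4H, a second cofactor, had the opposite timing, at 282, 274 and 297 CPM in normoxia, 473, 531 and 451 at 6 h, 427, 468 and 469.6 at 12 h, and 318 and 261 at 24 h. It was above normoxia at 6 h and 12 h and on either side of it at 24 h. Its log2 fold changes were 0.77 ± 0.14 and 0.68 ± 0.14 (edgeR adjusted p = 0.000618 and 0.0017) and then 0.03 (0.899).

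EIF4E, which binds the cap, was measured at 45.6, 39.5 and 45.3 CPM in normoxia, 133, 104 and 99 at 6 h, 112, 102 and 105 at 12 h, and 91.9 and 96.5 at 24 h. All hypoxic libraries lay above normoxia, and those of 24 h were the lowest among them. For EIF4E the log2 fold changes were 1.37 ± 0.14, 1.29 ± 0.14 and 1.12 ± 0.15 (edgeR adjusted p = 9.86e-06, 2.04e-05 and 5.54e-05). Under library size alone 1 of the 3 cap-binding genes was higher at 6 h, 1 at 12 h and 0 at 24 h. The call of EIF4E at 24 h was thus lost with that scaling. EIF4E2, the homolog that acts in cap-dependent translation under low oxygen and in repression, was higher at each time, at 0.41, 0.51 and 0.91, the last being -0.06 under library size alone. EIF4E3, another cap-binding homolog, went the other way, from 12.7, 11.8 and 13.2 CPM to 4.54, 5.48 and 7.87 at 6 h, 7.07, 5.22 and 6.40 at 12 h, and 6.46 and 6.16 at 24 h. All of its hypoxic libraries lay below normoxia, with log2 fold changes of -1.07 ± 0.20, -1.01 ± 0.20 and -0.99 ± 0.24 (edgeR adjusted p = 0.00085, 0.0014 and 0.00299).

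The 4E-binding proteins, which hold eIF4E away from eIF4G until mTORC1 phosphorylates them, diverged at 24 h. EIF4EBP1 stood at 27, 26 and 29.2 CPM in normoxia, 30.5, 33.0 and 27.3 at 6 h, 36.8, 49.6 and 52.5 at 12 h, and 65.4 and 96 at 24 h. It overlapped normoxia at 6 h and lay above it later. Its log2 fold change was 0.14 at 6 h (edgeR adjusted p = 0.503), 0.76 ± 0.17 at 12 h (0.00328) and 1.56 ± 0.19 at 24 h (2.49e-05). EIF4EBP2 stood at 124, 115 and 128 CPM in normoxia, 139, 137 and 146 at 6 h, 124, 110.1 and 118 at 12 h, and 73.8 and 51.6 at 24 h. Only at 24 h did every library lie below normoxia, with a log2 fold change of -0.96 ± 0.16 (edgeR adjusted p = 0.000289), and it fell by 1.16 ± 0.17 between 6 h and 24 h (0.000265).

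Within a library the log2 ratio of EIF4EBP2 to EIF4EBP1 was 2.16 ± 0.04 in normoxia, 2.22 ± 0.19 at 6 h, 1.36 ± 0.34 at 12 h and -0.36 ± 0.76 at 24 h (SD, n = 3, 3, 3 and 2), a measure that does not depend on the scaling. Exact permutation tests against normoxia gave p = 0.8, 0.1 and 0.2, the last pair the smallest possible. The log2 ratio of EIF4EBP1 to EIF4E was -0.66 ± 0.08 in normoxia, -1.88 ± 0.23 at 6 h, -1.21 ± 0.34 at 12 h and -0.25 ± 0.34 at 24 h, and no hypoxic group overlapped normoxia (exact permutation p = 0.1, 0.1 and 0.2, the smallest possible). Over the 21 ratio tests made on 7 pairs, no Benjamini-Hochberg adjusted value was below 0.3. EIF4EBP3 held at most 0.506 CPM in a library and passed at no time. EIF4ENIF1, which carries eIF4E into the nucleus and to sites of mRNA decay, passed against normoxia at no time and fell between 6 h and 24 h by 0.71 on the log2 scale.

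Of the eIF4G scaffolds, which join the cap complex to eIF3, EIF4G1 was higher at 6 h only, EIF4G3 was lower at 24 h only and EIF4G2 was higher at each time, with its value at 24 h turning to -0.24 under library size alone. With that scaling 0 of the 3 genes were higher at any time, and 2 were lower at 24 h. EIF4G1 stood at 421, 401 and 439.7 CPM in normoxia, 734, 788 and 603 at 6 h, 475, 616 and 597 at 12 h, and 429 and 306 at 24 h. It was above normoxia at 6 h and 12 h, and at 24 h 1 library lay within the normoxic range and 1 below. The log2 fold change was 0.75 ± 0.18 at 6 h (edgeR adjusted p = 0.00342), 0.42 at 12 h (0.0626) and -0.19 at 24 h (0.411), and the fall from 6 h to 24 h was -0.95 ± 0.20 (0.00291). EIF4G3, its paralog, stood at 114, 121 and 114 CPM in normoxia, 154, 133 and 135 at 6 h, 129.7, 140.2 and 138 at 12 h, and 93.8 and 52.4 at 24 h. At 24 h both libraries lay below normoxia (-0.67 ± 0.20, edgeR adjusted p = 0.0127). EIF4G2, a scaffold that does not bind eIF4E and serves cap-independent initiation, stood at 501, 561 and 519 CPM in normoxia and between 597 and 992 in hypoxia, always above normoxia. Its log2 fold changes were 0.73 ± 0.19, 0.63 ± 0.19 and 0.59 ± 0.21 (edgeR adjusted p = 0.00596, 0.0139 and 0.0253), with the last call lost without the first 24 h library or without the first or the third normoxic one. Within a library the log2 ratio of EIF4G2 to EIF4G1 was 0.33 ± 0.14 in normoxia and 1.09 ± 0.17 at 24 h (SD, n = 3 and 2, exact permutation p = 0.2, the smallest possible).

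Both factors of the late steps of initiation rose. EIF5B, the GTPase of subunit joining, stood at 105, 97.5 and 104 CPM in normoxia, 329, 265 and 223 at 6 h, 294, 254 and 261 at 12 h, and 383 and 405 at 24 h. The 24 h libraries lay above all others and normoxia below all others. Its log2 fold changes were 1.41 ± 0.16, 1.40 ± 0.16 and 1.95 ± 0.17 (edgeR adjusted p = 1.66e-05, 2.45e-05 and 2.79e-06), and the difference of 0.53 between 6 h and 24 h was -0.07 under library size alone. EIF6, which keeps the large subunit apart until it is mature, stood at 87.9, 86.7 and 92.2 CPM in normoxia, 113, 120.5 and 115 at 6 h, 145, 129 and 134 at 12 h, and 155 and 329 at 24 h. The 4 groups did not overlap. It did not pass at 6 h (0.38, edgeR adjusted p = 0.138) and was higher at 12 h (0.61 ± 0.21, 0.0271) and 24 h (1.44 ± 0.23, 0.000175).

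**Figure D5:**
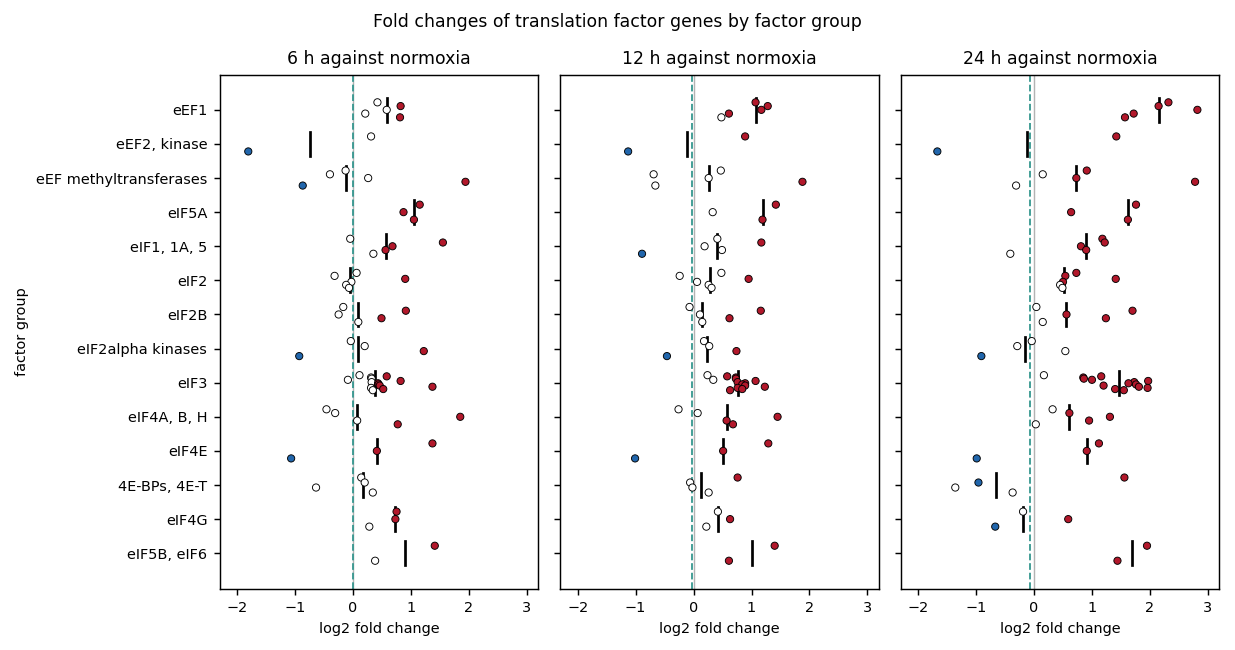
Points are the log2 fold changes of the 66 genes against normoxia at 6 h, 12 h and 24 h by factor group, filled red or blue where edgeR called the gene higher or lower, with black bars at group medians and a dashed line at the median of all genes tested. At 24 h 13 of 14 eIF3 genes and 5 of 5 eEF1 genes are red, while the kinases of eIF2α and the eIF4G group lie on both sides of 0.

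Other genes of the pathway, which do not carry an EIF or EEF symbol of this kind, were read as 6 lists of 47 genes, of which 46 were tested. Together 18 were higher and 11 lower at 6 h (39.1% and 23.9%, against 25.1% and 27.7% of all genes tested), 16 and 9 at 12 h (34.8% and 19.6%, against 24.2% and 27.1%), and 23 and 11 at 24 h (50% and 23.9%, against 29.9% and 31.3%), with medians of 0.15, 0.27 and 0.43. Of 16 other cytosolic initiation and cap factors 8 were higher at each time and 2, 2 and 4 lower. PAIP2 and PAIP2B, repressors that bind the poly(A)-binding protein, went opposite ways, at log2 fold changes of 0.99, 1.05 and 1.57 for PAIP2 and -0.87, -0.90 and -1.40 for PAIP2B. PABPC1, the poly(A)-binding protein itself, was higher at 12 h (0.62, edgeR adjusted p = 0.0167) and 24 h (0.68, edgeR adjusted p = 0.0147, or -0.17 under library size alone). PDCD4, an inhibitor of eIF4A, was higher at 6 h (0.60, edgeR adjusted p = 0.00528) and fell by 24 h. LARP1, named here after its values were seen because it binds TOP mRNAs, stood at 507, 462 and 535 CPM in normoxia and 245 and 175 at 24 h (-1.26 ± 0.22, edgeR adjusted p = 0.000333).

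Of 5 genes of eIF2α dephosphorylation, GCN2 control and the ATF4 response, 1 was higher and 2 lower at 6 h, 0 and 1 at 12 h, and 1 and 3 at 24 h. PPP1R15A, which encodes GADD34, the stress-induced phosphatase subunit that reverses eIF2α phosphorylation, measured 95.8, 103 and 97.3 CPM in normoxia, 20.1, 18.7 and 27.9 at 6 h, 83.7, 74.6 and 84.7 at 12 h, and 167 and 62.0 at 24 h. It fell at 6 h only, by 2.15 ± 0.29 on the log2 scale (edgeR adjusted p = 6.41e-05), and the 24 h libraries lay on either side of normoxia. ATF4, the transcription factor translated when eIF2 is phosphorylated, stood at 204, 216 and 212 CPM in normoxia, 153, 176 and 169 at 6 h, and 417 and 314 at 24 h. It did not pass at 6 h (-0.34, edgeR adjusted p = 0.0628) and was higher at 24 h (0.79 ± 0.16, adjusted p = 0.001), a value that was -0.08 under library size alone. IMPACT, an inhibitor of GCN2, was lower at each time (-1.35, -1.52 and -1.42), as was EIF2AK4 itself.

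All 5 tested termination and recycling genes were higher at 6 h and 24 h and 4 at 12 h, with medians of 0.76, 0.87 and 1.09. Over all genes tested 25.1%, 24.2% and 29.9% were higher at 6 h, 12 h and 24 h. Under library size alone 2 of the 5 were higher at 6 h, 2 at 12 h and 1 at 24 h. Their medians were then 0.44, 0.39 and 0.21. GSPT1, which encodes the release factor eRF3a, stood at 136, 128 and 134 CPM in normoxia and between 335 and 579 CPM in hypoxia, with log2 fold changes of 1.62, 1.62 and 1.86 (edgeR adjusted p = 1.64e-05, 2.31e-05 and 7.93e-06). HBS1L, a rescue factor for stalled ribosomes, was higher by 0.38, 0.40 and 0.47, the last 2 turning to -0.07 and -0.41 under library size alone. Of 9 genes that make hypusine and diphthamide, the modified residues of eIF5A and eEF2, 1 was higher and 3 lower at 6 h, 1 and 3 at 12 h, and 3 and 2 at 24 h. DPH2 was higher throughout (1.51, 1.25 and 1.48) and DPH6 lower (-0.83, -1.0 and -0.81), 2 enzymes of the same diphthamide route. EEFSEC, the elongation factor for selenocysteine, fell at 6 h (-1.74) and 12 h (-0.83) and did not pass at 24 h (-0.64), and its partner SECISBP2 was lower at each time. Of 9 mitochondrial factors 3 were higher and 2 lower at 6 h, 3 and 1 at 12 h, and 6 and 1 at 24 h, with the initiation factor MTIF2 lower (-1.28, -0.99 and -0.84) and the release factor MTRF1L higher (1.28, 1.46 and 1.85) at every time.

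Gene length moved with the fold changes over all protein-coding genes. Spearman's rho between annotated exonic length and the log2 fold change was -0.04 at 6 h, -0.10 at 12 h and -0.30 at 24 h over 13802 genes, which are not independent replicates, and -0.00, -0.14 and -0.23 over the 66. At 24 h protein-coding genes cut by length into 3 equal classes had a median log2 fold change of 0.51 in the shortest class and -0.41 in the longest. A fit with an offset for length and GC content, chosen after the data were seen, called 35 of the 66 higher and 3 lower at 6 h, 44 and 4 at 12 h, and 49 and 4 at 24 h. Over the 19981 genes tested it called 5797 higher and 5308 lower at 6 h, 5693 and 5087 at 12 h, and 6771 and 5553 at 24 h. Without the offset these were 5018 and 5534, 4827 and 5409, and 5974 and 6261. Leaving out the 20 genes that share 10% or more of their 75-base windows, or of their exonic bases on the same strand, with other genes, also chosen afterwards, left 22 of 46 higher and 3 lower at 6 h, 24 and 4 at 12 h, and 31 and 5 at 24 h.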

How the data were processed

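The authors deposited raw counts per gene. FastQC is listed in the submitters' processing notes, and per the study's methods reads were trimmed with Trimmomatic, aligned to GRCh38 with STAR and counted with featureCounts against Ensembl annotation, and were then filtered, TMM-scaled and tested with voom and limma. Strand and multi-mapping settings are not given in the sources used here. From these deposited counts, genes passing filterByExpr (minimum count 10, total 15) were fitted in edgeR 4.0.16 (R 4.3.3) with TMM scaling and its quasi-likelihood test over the 4 groups together, with Benjamini-Hochberg adjustment and a threshold of 0.05. Length, overlap and biotype came from GENCODE 44, which holds 60357 of the gene identifiers, and start sequences from RefSeq (GRCh38.p14). Shares and ratios were compared by exact two-sided permutation tests. The genes named were 20 central factors, the 8 highest and 8 lowest members by the average log2 fold change over the 3 times, the highest and lowest of each factor group and pathway list by that average, and ATF4, PPP1R15A, PABPC1 and PDCD4; others appear with single values. The factor genes and lists were chosen with earlier results of these data known. Alternatives used limma 3.58.1 and DESeq2 1.42.0, other scalings and filters, the replicate number as a block, and left-out libraries.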

Additional observations from a re-analysis of the deposited data

Results flagged for a closer look

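Differences between the effects of 6 h and 24 h of hypoxia, tested directly as the log2 fold change of 24 h against 6 h, passed edgeR's quasi-likelihood test (adjusted p below 0.05) for 19 of the named translation factor genes. No group had the 4 libraries needed for a test of single libraries that stand apart. Among elongation factors, EEF1B2 differed by 2.24, EEF1A1 by 1.90, EEF1D by 1.51, EEF1A2 by 1.33, EEF2 by 1.11 and the methyltransferase gene EEF1AKMT4 by 0.84, in each case higher at 24 h.

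Among initiation factors, EIF4EBP1 differed by 1.41, EIF6 by 1.06, EIF4A2 by 0.92, EIF2D by 0.86 and EIF2B2 by 0.79, and the differences of 0.53 for EIF5B and 0.51 for EIF2S1 turned to -0.07 and -0.06 under library size alone. With that scaling the calls for EEF2, EEF1AKMT4, EIF6, EIF4A2, EIF2D, EIF2B2, EIF5B and EIF2S1 were lost. There 4 of 5 eEF1 genes and 1 of 4 eIF4E-binding repressors were higher at 24 h than at 6 h. Lower at 24 h than at 6 h were EIF4EBP2 (-1.16), EIF4G1 (-0.95), EIF4G3 (-0.95), EIF2AK3 (-0.67), EIF4A3 (-0.53) and EIF2AK2 (-0.48). Without the second 24 h library the calls for EIF2AK3, EIF2AK2 and EEF1AKMT4 were lost. All of these contrasts rest on 2 libraries at 24 h.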

How the results depend on the processing

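The 24 h group has 2 libraries, and the composition factor of one of them is 0.539. Of 4279 values of 204 gene results under alternatives, 3924 kept their call with its direction or stayed uncalled, where directions were not compared. A further 170 lost the call, 166 gained one and 19 reversed, the last counted only where either fit called the gene. Counts of factor genes called higher and lower moved by over 1.5 times under library size alone, to 12 and 10 at 6 h, 15 and 8 at 12 h, 19 and 16 at 24 h, and 11 and 13 for 24 h against 6 h, which the change of scaling itself brings about. Under limma-voom with sample quality weights 7 genes were lower at 6 h and 8 at 12 h, and 21 were higher and 4 lower for 24 h against 6 h. Over all genes tested that fit called 6633 lower at 6 h and 7766 at 12 h, against 5534 and 5409 in the main fit. For 24 h against 6 h it called 1455 higher and 1076 lower, against 4423 and 4056. With only the groups compared in the fit, 18 were higher and 3 lower for 24 h against 6 h. Over the 17756 genes tested in that fit 1933 were higher and 1983 lower. With only the 46 genes that share less than 10% of their windows or same-strand exonic bases, 23 were higher for 24 h against 6 h, from fewer genes. The cause was not tested for the limma values or those of the smaller fits.

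Leaving out each library in turn gave 19 to 37 genes higher and 3 to 6 lower at 6 h, 29 to 41 and 2 to 7 at 12 h, 43 to 47 and 5 to 11 at 24 h, and 30 to 37 and 6 to 12 for 24 h against 6 h. The lowest count at 6 h was without the third normoxic library, and the highest lower counts were without the first 24 h library. Counts over all genes moved too. Without the third normoxic library 4036 of 19697 genes tested were higher and 4621 lower at 6 h, against 5018 and 5534 of 19981.

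Among the named genes, and only where either fit called the gene, these log2 fold changes reversed under library size alone: EIF4G2 -0.24, EIF4A2 -0.30, EIF5A2 -0.37, EEF1AKMT2 -0.92, EIF2D -0.41, EIF2B1 -0.88, ATF4 -0.08, PABPC1 -0.17 and HBS1L -0.41 at 24 h, HBS1L -0.07 at 12 h, and EIF2S1 -0.06, EIF5B -0.07, PAIP2 -0.01 and MTRF1L -0.03 for 24 h against 6 h. Without the first or the second 24 h library EIF4A1 was -1.83 or 1.10 and PPP1R15A -0.73 or 0.74 at 24 h, and EIF4A1 -1.34 or 1.58 and EIF2AK1 -0.33 or 0.25 for 24 h against 6 h, while EEF1AKMT2 was 0.69 or -0.86 at 24 h. The cause was not tested.

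Replicate numbers are shared among the groups, but of 15 pairs with the same number only 2 had correlated deviations above 0.1, as had 3 of 30 pairs with different numbers. The deviations are from the means of small groups and depend on one another, so that these values cannot decide whether libraries with the same number are paired. With the replicate number as a block 25 factor genes were higher and 4 lower at 6 h, 34 and 4 at 12 h, 43 and 5 at 24 h, and 32 and 9 for 24 h against 6 h.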
